A study of Mus musculus with 6 samples.

Results

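Genes of the cell cycle and of DNA replication were followed in myeloid cells from the liver. A list of 40 genes was drawn up by function, 22 that act in mitosis and 18 that act at the entry into S phase or at the replication fork. Of these, 39 had an array row that names that gene alone (21 mitotic and 18 S-phase), among 19938 genes tested. Ccnb1 is not analysed here. All mice were C57BL/6 and all carried tumours of EL4, a T lymphoma line. One group received PBS (3 arrays, called untreated in their titles) and the other type IV concanavalin A, or Con A, a lectin that activates T cells and injures the liver (3 arrays). The dose of Con A reads 12.5 mg/kg in one part of the labels and 12.5 ug/kg in another. CD11b+Gr-1+ cells, labelled as hepatic myeloid-derived suppressor cells, were sorted 3 hours after the injection. The labels give 3 mice a group and neither their age nor their sex. They do not tie an array to a mouse, so p-values describe the spread between arrays, which may be partly technical. In a sorted bulk sample, fewer cells of a type and less RNA per cell cannot be told apart.

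A dividing cell copies its DNA in S phase and separates the copies in mitosis. Genes for replication are switched on by E2F factors at the G1/S boundary, and genes for mitosis are switched on later through MuvB complexes with MYBL2 and FOXM1. In the myeloid lineage the early precursors divide and the mature granulocytes do not.

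Values are log2 expression values as deposited, so a difference of 1 is a factor of 2. Differences are Con A minus PBS from limma and p-values were adjusted by Benjamini-Hochberg over the 19938 genes. A gene passed at an adjusted p under 0.05. The values per array are always given for replicates 1, 2 and 3 in that order. Array medians were 7.05 to 7.08. Ly6g, part of the Gr-1 epitope, lay at 13.59 ± 0.09 after PBS and 13.51 ± 0.05 after Con A (SD, n = 3), and the defining T cell gene Cd3e at 7.21 ± 0.09 after PBS and 7.28 ± 0.09 after Con A. PBS replicate 3 differed most from the other arrays of its group over all genes and had the lowest array weight (0.527, against 0.824 to 1.31 for the others). PBS replicate 2 stood apart in the genes described here, as shown next.

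Con A lowered 1 of the 39 genes and raised none by this test, while most of the other 38 were higher on average without passing it. Cdca7, a MYC-responsive gene whose product brings the remodeller HELLS to chromatin, was 3.58-fold lower. Of the 21 mitotic genes 20 had a higher mean after Con A, with a median difference of 0.67, and 0 passed. Of the 18 S-phase genes 15 had a higher mean, with a median difference of 0.34 (0.21 without PBS replicate 1), and Cdca7 passed, downward. Over all 19938 genes the median difference was 0.02, 56% had a higher mean, 4.59% rose and 7.22% fell. At an unadjusted p under 0.05 there were 15 mitotic genes and 7 S-phase genes, Cdca7 among the latter, and 24.7% of all genes.

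For 14 of the 21 mitotic genes the arrays stood in the same order from low to high: PBS replicates 3 and 1, Con A replicate 3, PBS replicate 2, then Con A replicates 2 and 1. The other 7 (Bub1b, Aurkb, Kif23, Tpx2, Nusap1, Prc1 and Ttk) departed from it, and 2 of 18 S-phase genes had it (Rrm1 and Rrm2). PBS replicate 2 held the highest PBS value for 21 of 21 mitotic genes and 17 of 18 S-phase genes, against 30.1% of all genes. It lay above PBS replicates 1 and 3 by a median of 0.82 for the mitotic genes and 0.51 for the S-phase genes, and by a median of -0.01 over all genes. The median mitotic difference between the groups, 0.67, was smaller than that gap within the PBS group. Within the Con A group, replicate 1 was the highest for 21 of 21 mitotic genes and replicate 3 the lowest for 21 of 21. For all genes these shares were 33.7% and 36.6%.

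**Figure D1:**
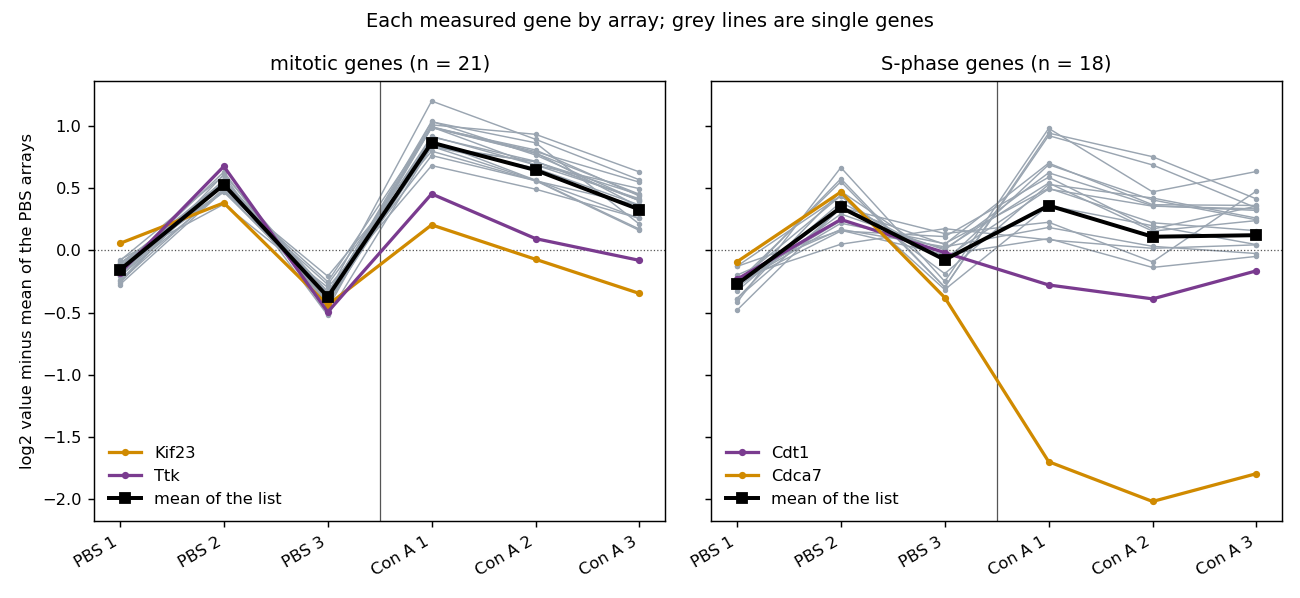
Each line is 1 gene, plotted as its log2 value in each of the 6 arrays minus its mean over the 3 PBS arrays, for 21 mitotic genes (left) and 18 S-phase genes (right); black squares are the mean of the list. PBS replicate 2 lies 0.53 above the PBS mean for the mitotic list, between Con A replicate 3 at 0.33 and Con A replicate 2 at 0.65, and Cdca7 alone drops far below its PBS values.

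PBS replicates 1 and 3 were both below every Con A array for 20 of 21 mitotic genes, Kif23 being the exception, and for 12 of 18 S-phase genes. Over all genes this held for 19.4%. This comparison sets aside the PBS array that was the highest for nearly all of these genes, so that share is not a like reference. With PBS replicate 2 counted, the groups did not overlap for 3 mitotic genes (Tpx2, Nusap1 and Prc1) and 4 S-phase genes (Mcm2, Mcm3, Ccne1 and Cdca7). These 7 of 39 genes are 17.9%, below the 29.9% of all genes whose groups did not overlap.

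The test gave a different count without PBS replicate 2. In that fit 19 of the 21 mitotic genes rose, all but Kif23 and Ttk, and 7 of the 18 S-phase genes rose (Mcm5, Mcm7, Rrm1, Rrm2, Tyms, Uhrf1 and Ccne1), against 3.9% of all genes. Of these, Bub1, Kif20a and Ccne1 lay just under the threshold (limma adjusted p = 0.0497, 0.0495 and 0.0491). Cdca7 fell there too, against 4.57% of all genes. PBS replicate 2 was the highest PBS array for 21 of 21 mitotic and 17 of 18 S-phase genes. Leaving it out therefore had to raise the differences of those genes. It was the highest for 30.1% of all genes, so their shares are not a like reference for these counts. Leaving out any of the other 5 arrays gave 0 mitotic genes and Cdca7 alone among the S-phase genes. The labels give no ground for leaving out PBS replicate 2, and the count of the main fit on all 6 arrays stands as the result. A fit with a block for the replicate number also used all 6 arrays. It gave 13 mitotic genes higher and 1 S-phase gene, Cdca7, lower, beside 5.09% of all genes higher and 7.64% lower.

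**Figure D2:**
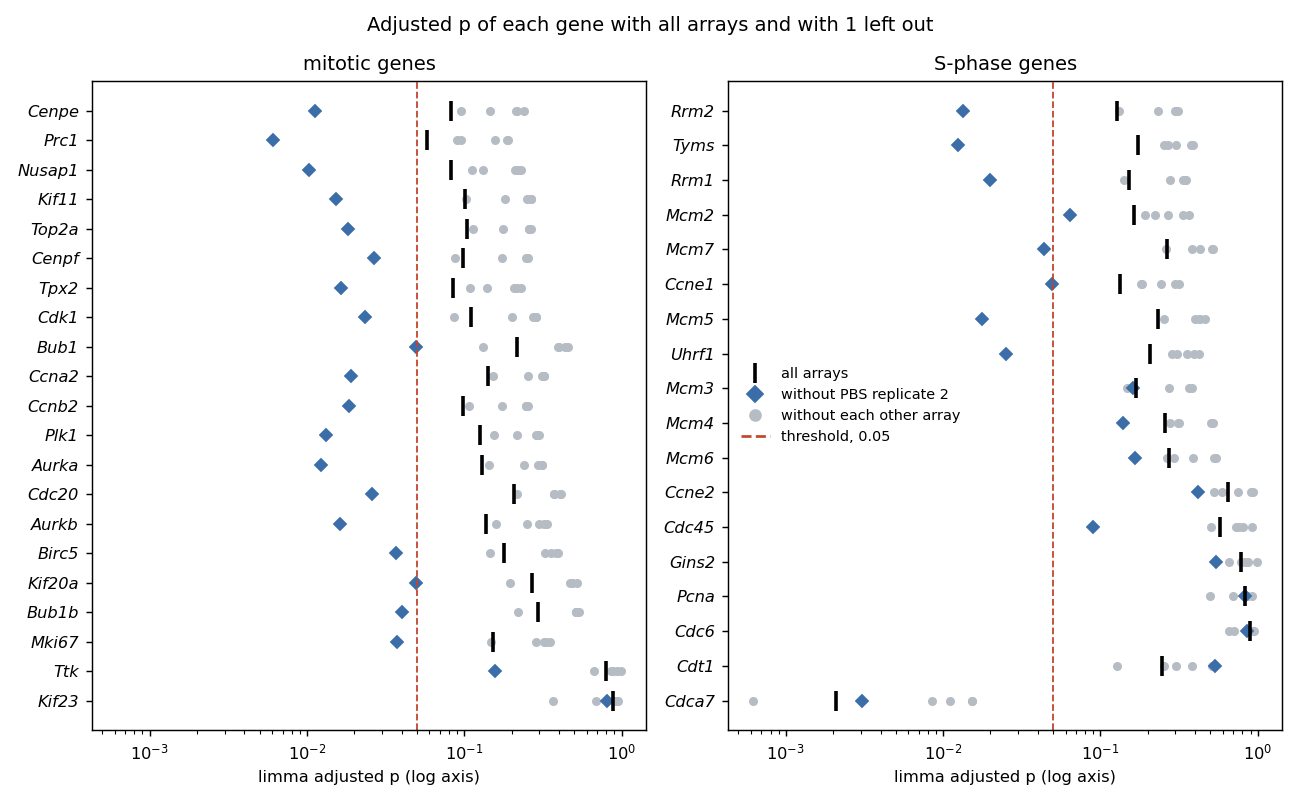
The limma adjusted p of each gene on a log axis, with all 6 arrays (black bar), without PBS replicate 2 (blue diamond) and without each of the other 5 arrays (grey dots); genes are ordered by their difference and the dashed line is the threshold of 0.05. The blue diamonds of 19 mitotic genes lie left of the line, while Cdca7 is left of it in every fit.

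Cdca7 was the 1 gene past the threshold. It lay at 10.28, 10.84 and 9.99 after PBS and 8.67, 8.35 and 8.57 after Con A. The groups were more than 1 log2 unit apart at their nearest arrays, and PBS replicate 2, its highest array, was high as for the other genes. Cdca7 fell by 1.84 (95% interval -2.32 to -1.36, adjusted p = 0.00208 by limma), and the adjusted p was at most 0.0154 with any 1 array left out. Its partner Hells, named here for that role outside the rule for named genes, differed by -0.01 (95% interval -0.35 to 0.34) and did not pass. Dnmt1, the maintenance methyltransferase named for the same reason, differed by 0.02 (-0.35 to 0.40), and Uhrf1, which recruits it to newly copied DNA, by 0.40 (-0.0024 to 0.79).

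Promoters of 4 of the genes are printed. They show letters that were more frequent in one list than in the other, and the gene with the lowest difference of each list. They run from 250 bases before to 50 bases after the RefSeq start on GRCm38.p6, 5′ to 3′ on the gene's strand, with matches in capitals. Letters searched on both strands were TTTCCCGC, TTTGGCGC, TTTCGCGC and TTTGCCGC (E2F type), TTTGAA and TTCGAA (the cell cycle homology region, CHR), CCAAT, and CACGTG (E-box). Mcm3 is an S-phase gene with E2F-type letters, which 8 of the 17 S-phase windows held. Prc1, printed from the first of its 2 listed starts, is a mitotic gene with CHR letters. Cdca7 and Kif23 are the gene that fell and the mitotic gene with the lowest difference.
Cdca7, chr2:72475969-72476268, plus strand: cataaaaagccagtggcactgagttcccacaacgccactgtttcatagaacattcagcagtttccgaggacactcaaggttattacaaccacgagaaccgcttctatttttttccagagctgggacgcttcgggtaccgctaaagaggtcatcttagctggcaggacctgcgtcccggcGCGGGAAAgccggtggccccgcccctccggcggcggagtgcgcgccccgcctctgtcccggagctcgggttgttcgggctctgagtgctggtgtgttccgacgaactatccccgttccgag
Mcm3, chr1:20820263-20820562, minus strand: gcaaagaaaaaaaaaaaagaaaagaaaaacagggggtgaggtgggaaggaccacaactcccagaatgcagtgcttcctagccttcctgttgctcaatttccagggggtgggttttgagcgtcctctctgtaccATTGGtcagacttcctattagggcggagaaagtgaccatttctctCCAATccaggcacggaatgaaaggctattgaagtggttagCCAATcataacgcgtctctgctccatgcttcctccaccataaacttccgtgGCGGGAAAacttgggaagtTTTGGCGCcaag
Prc1, chr7:80294201-80294500, plus strand: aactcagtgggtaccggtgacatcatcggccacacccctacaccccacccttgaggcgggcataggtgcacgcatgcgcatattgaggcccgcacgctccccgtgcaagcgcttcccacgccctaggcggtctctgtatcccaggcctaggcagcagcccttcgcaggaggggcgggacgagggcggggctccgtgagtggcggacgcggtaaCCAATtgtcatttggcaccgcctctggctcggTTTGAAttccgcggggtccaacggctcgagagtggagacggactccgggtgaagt
Kif23, chr9:61946750-61947049, minus strand: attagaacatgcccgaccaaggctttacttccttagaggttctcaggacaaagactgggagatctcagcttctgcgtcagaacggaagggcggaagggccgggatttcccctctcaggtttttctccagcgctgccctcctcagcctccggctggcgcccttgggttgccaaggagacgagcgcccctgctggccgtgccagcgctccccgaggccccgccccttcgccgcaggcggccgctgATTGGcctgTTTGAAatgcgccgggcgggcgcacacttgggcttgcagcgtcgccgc

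The capitals in the Cdca7 window are 1 E2F-type match at bases -71 to -64 from the start, and no CHR, CCAAT or E-box letters lie in this window. The Mcm3 window holds 2 E2F-type matches after the start and 3 CCAAT matches. Prc1 and Kif23 each hold 1 CHR and 1 CCAAT match, so the mitotic gene with the smallest difference and a gene with one of the largest hold the same kinds of letters. RefSeq windows were matched for 17 of 21 mitotic genes (18 windows) and 15 of 18 S-phase genes (17 windows). CHR letters stood in 15 of the 18 mitotic windows (83.3%) and 3 of the 17 S-phase windows (17.6%), against 19.2% of 32851 windows of the same length. CCAAT letters accompanied CHR letters in all 15 of those mitotic windows, a pair found in 7.52% of all windows. E2F-type letters stood in 8 of the 17 S-phase windows (47.1%) and 1 of the 18 mitotic windows, that of Cdk1, against 2.26% of all windows. CCAAT letters alone or with others stood in 16 of the 18 mitotic and 12 of the 17 S-phase windows, against 37.4% of all. E-box letters were in 2 of the 35 windows, those of Ttk and Tyms, against 7.15% of all. In the 35 windows 1 pair of matches of different kinds overlapped. A match is a description of the letters and not a site of binding.

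Among the mitotic genes, the cyclins and their kinase were in the common order of arrays. Cdk1, the kinase that drives entry into mitosis, lay at 9.89, 10.64 and 9.88 after PBS and 11.13, 10.92 and 10.49 after Con A. Ccnb2, a cyclin partner of it, lay at 11.25, 11.84 and 11.03 after PBS and 12.29, 12.06 and 11.79 after Con A. PBS replicate 2 was above Con A replicate 3 in both, so the groups overlapped. The differences were 0.71 and 0.67 (adjusted p = 0.111 and 0.0985 by limma). Ccna2, the cyclin that works in S phase and G2, lay at 10.83, 11.51 and 10.52 after PBS and 11.87, 11.67 and 11.36 after Con A and differed by 0.68 (limma adjusted p = 0.141). Mki67, the proliferation antigen Ki-67 that coats mitotic chromosomes, lay at 11.65, 12.09 and 11.42 after PBS and 12.41, 12.22 and 11.98 after Con A and differed by 0.48 (95% interval 0.05 to 0.90). In Ccna2 and Mki67, too, PBS replicate 2 lay above Con A replicate 3. Top2a, the topoisomerase that untangles sister chromatids, lay at 10.33, 10.97 and 10.02 after PBS and 11.43, 11.22 and 10.89 after Con A and differed by 0.74 (limma adjusted p = 0.105). Its order of arrays was the same, and a second row for Top2a, with a mean level of 3.77, differed by 0.21.

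Of the mitotic kinases and checkpoint genes, Plk1 and Aurka, which build the spindle poles, showed the same order. Plk1 lay at 10.47, 11.15 and 10.18 after PBS and 11.44, 11.31 and 11.05 after Con A. Aurka lay at 9.76, 10.51 and 9.63 after PBS and 10.80, 10.68 and 10.37 after Con A. PBS replicate 2 exceeded Con A replicate 3 in each, and the differences were 0.67 and 0.65 (limma adjusted p = 0.126 and 0.129). Aurkb and Birc5 belong to the chromosomal passenger complex, which corrects kinetochore attachments. Aurkb lay at 10.39, 11.15 and 10.46 after PBS and 11.47, 11.23 and 11.03 after Con A, and Birc5, or survivin, at 8.23, 8.92 and 8.16 after PBS and 9.32, 9.002 and 8.69 after Con A. Both overlapped through PBS replicate 2, with differences of 0.57 and 0.57 (limma adjusted p = 0.138 and 0.179).

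The spindle checkpoint holds anaphase until every chromosome is attached. Bub1, a checkpoint kinase, lay at 9.14, 9.94 and 8.84 after PBS and 10.34, 10.18 and 9.52 after Con A. Cdc20, which activates the anaphase-promoting complex once the checkpoint is satisfied, lay at 8.95, 9.64 and 8.51 after PBS and 9.87, 9.70 and 9.40 after Con A. These genes differed by 0.70 and 0.62, with limma adjusted p of 0.216 and 0.206, and PBS replicate 2 lay above Con A replicate 3 for each. Bub1b, which encodes BUBR1, lay at 8.96, 9.77 and 8.87 after PBS and 9.96, 9.76 and 9.36 after Con A and differed by 0.496 (95% interval -0.10 to 1.09). Ttk, the kinase MPS1 at the head of the checkpoint, lay at 7.56, 8.42 and 7.25 after PBS and 8.20, 7.84 and 7.66 after Con A. Its highest array was PBS replicate 2, above all Con A arrays, and its difference was 0.16 (95% interval -0.52 to 0.83). Without PBS replicate 3 the Ttk difference was -0.09.

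The largest mitotic differences belonged to genes of the spindle and the kinetochore. Prc1, which bundles microtubules at the central spindle, lay at 8.78, 9.53 and 8.60 after PBS and 9.98, 9.90 and 9.60 after Con A. Its groups did not overlap, but PBS replicate 2 was within 0.1 of Con A replicate 3. The difference was 0.86 (95% interval 0.31 to 1.41, limma adjusted p = 0.0583), 1.81-fold, and it passed when only the brighter genes were tested, where 23.7% of the genes tested passed. Cenpe, a kinetochore motor, lay at 8.32, 9.19 and 8.23 after PBS and 9.79, 9.48 and 9.15 after Con A and had the largest difference of the list, 0.89 (0.26 to 1.52, limma adjusted p = 0.082). Its PBS replicate 2 lay just above Con A replicate 3, by less than 0.1.

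Nusap1, a microtubule-binding protein of the spindle, lay at 10.26, 10.95 and 9.995 after PBS and 11.40, 11.20 and 10.95 after Con A. Tpx2, which activates Aurora A on the spindle, lay at 9.11, 9.70 and 8.84 after PBS and 10.21, 9.90 and 9.71 after Con A. In both, PBS replicate 2 was the nearest PBS array to the Con A group, and the lowest Con A array was above it by less than 0.1. The differences were 0.78 and 0.73 (limma adjusted p = 0.0819 and 0.0844). Kif11, the motor that pushes spindle poles apart, lay at 10.29, 11.02 and 10.12 after PBS and 11.46, 11.28 and 10.91 after Con A. Cenpf, a kinetochore protein that peaks in G2, lay at 8.26, 8.84 and 7.99 after PBS and 9.40, 9.13 and 8.76 after Con A. Each overlapped only through PBS replicate 2, with differences of 0.75 and 0.74 (limma adjusted p = 0.102 and 0.0986).

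Kif20a and Kif23 encode kinesins of cytokinesis. Neither passed, and their 95% intervals overlapped. Kif20a lay at 9.36, 10.10 and 9.19 after PBS and 10.39, 10.12 and 9.72 after Con A and differed by 0.53 (95% interval -0.08 to 1.13). Kif23, the motor of the centralspindlin complex, lay at 10.92, 11.25 and 10.42 after PBS and 11.07, 10.79 and 10.52 after Con A. Its arrays were interleaved between the groups, and its difference was -0.07 (-0.59 to 0.45), the 1 mitotic gene with a lower mean after Con A. That sign turned without PBS replicate 2, to 0.12, and without Con A replicate 3, to 0.07. Racgap1, the other subunit of centralspindlin and named for that role, differed by 0.84 (0.17 to 1.52) and did not pass.

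**Figure D3:**
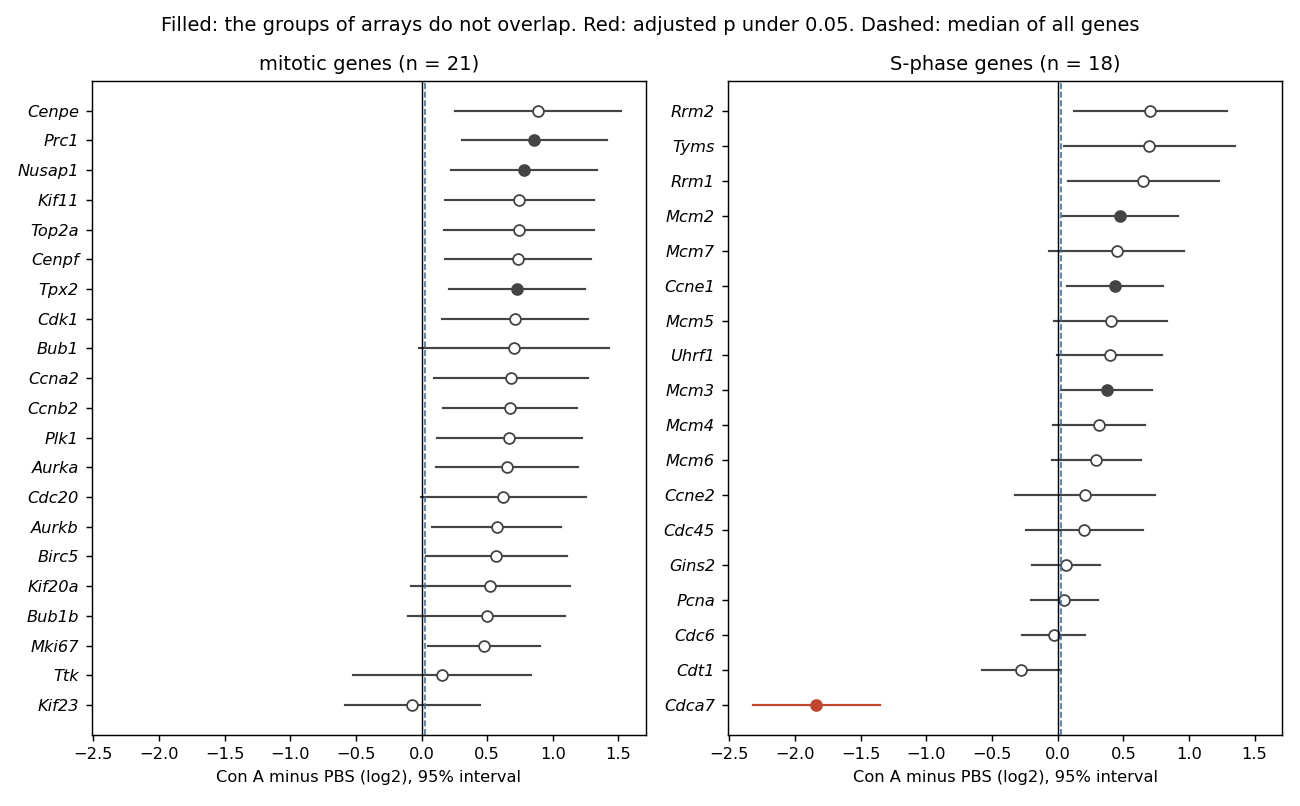
Con A minus PBS on the log2 scale with 95% intervals from limma, for 21 mitotic genes (left) and 18 S-phase genes (right), each ordered by size; filled points mark genes whose arrays do not overlap between groups, red marks the gene past the threshold and the dashed line is the median of all genes, 0.02. The mitotic differences cluster near 0.67 apart from Ttk and Kif23, while the S-phase differences spread from 0.70 for Rrm2 down to -1.84 for Cdca7.

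The S-phase list was less uniform than the mitotic list. Its upward differences of 0.5 or more were those of the 3 genes of nucleotide supply, and Cdca7 differed by -1.84. Among the mitotic genes 17 reached 0.5 or more upward, against 4.53% of all genes. Rrm1 and Rrm2 are the subunits of ribonucleotide reductase, which makes deoxynucleotides. Rrm1 lay at 10.11, 10.93 and 10.08 after PBS and 11.30, 11.06 and 10.71 after Con A, and Rrm2 at 9.88, 10.74 and 9.87 after PBS and 11.11, 10.92 and 10.58 after Con A. Both had the common array order of the mitotic genes, with differences of 0.65 and 0.70 (limma adjusted p = 0.151 and 0.127). Tyms, thymidylate synthase, lay at 7.68, 8.77 and 7.85 after PBS and 9.08, 8.57 and 8.74 after Con A and differed by 0.70 (limma adjusted p = 0.174). PBS replicate 2 stood above at least 1 Con A array in each of these 3 genes.

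Mcm2 to Mcm7 encode the 6 subunits of the replicative helicase, which is loaded on origins in G1. All 6 had higher means after Con A, with differences from 0.29 (Mcm6) to 0.48 (Mcm2), and 0 passed. Mcm2 lay at 8.08, 8.81 and 8.52 after PBS and 9.17, 8.84 and 8.83 after Con A. Mcm3 lay at 7.67, 8.09 and 8.05 after PBS and 8.53, 8.11 and 8.29 after Con A. The groups did not overlap in these 2 genes, although PBS replicate 2 came within 0.05 of the lowest Con A array in each. Their limma adjusted p-values were 0.163 and 0.169. Mcm4, Mcm5 and Mcm7 differed by 0.31, 0.40 and 0.45, and PBS replicate 2 overlapped with Con A arrays in each, as it did for Mcm6.

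The factors that load and fire the helicase lay closer to 0 than its subunits or had a lower mean, and none passed. Cdt1, which brings the helicase to origins, was lower on average after Con A, at 8.53, 9.01 and 8.74 after PBS and 8.48, 8.37 and 8.60 after Con A. Con A replicate 3 lay above PBS replicate 1, so the groups overlapped, and the difference was -0.28 (95% interval -0.58 to 0.03, limma adjusted p = 0.245). Gmnn, which encodes the Cdt1 inhibitor geminin and is named for that role, differed by 0.03 (-0.34 to 0.39). Cdc6, the partner of Cdt1 in loading, differed by -0.03 (-0.27 to 0.21). Gins2 and Cdc45, which join the helicase when it fires, differed by 0.06 (-0.20 to 0.32) and 0.20 (-0.24 to 0.65). Pcna, the sliding clamp of the replication fork, differed by 0.05 (-0.21 to 0.30), and its other row gave the same difference to 2 decimals.

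The E-type cyclins start S phase together with CDK2. Ccne1 lay at 8.02, 8.61 and 8.32 after PBS and 8.94, 8.67 and 8.64 after Con A. Its lowest Con A array was above the highest PBS array by less than 0.05, and the difference was 0.44 (95% interval 0.07 to 0.80, limma adjusted p = 0.133). Ccne2 differed by 0.20 (-0.33 to 0.74) with its arrays interleaved, and by -0.04 without PBS replicate 1.

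The 2 lists also ordered the PBS arrays differently. PBS replicate 3 was the lowest PBS array for 20 of 21 mitotic genes, and PBS replicate 1 was the lowest for 14 of 18 S-phase genes. For all genes these shares were 41% and 25.5%. Measured from the PBS mean, the mitotic list stood at -0.16, 0.53 and -0.37 in PBS replicates 1, 2 and 3 and at 0.87, 0.65 and 0.33 in Con A replicates 1, 2 and 3. The S-phase list stood at -0.27, 0.35 and -0.07 and at 0.36, 0.11 and 0.12. The mitotic shift minus the S-phase shift was 0.12, 0.18 and -0.30 after PBS and 0.51, 0.54 and 0.21 after Con A. The lowest Con A array (replicate 3) was barely above the highest PBS array (replicate 2), and that order turned without Cdca7 in the S-phase mean, a version added after the values were seen. The mitotic minus S-phase shift was then 0.13, 0.19 and -0.32 after PBS and 0.39, 0.41 and 0.09 after Con A, so the groups overlapped.

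The other genes of the pathway came from 5 lists. Beside their counts, 4.59% of all genes rose and 7.22% fell. In the fit without PBS replicate 2, 3.9% of all genes rose and 4.57% fell. Of 60 other genes of mitosis and cytokinesis 5 rose and 0 fell, with a median difference of 0.62. Ckap2l, which encodes a spindle protein of dividing cells, lay at 8.65, 9.47 and 8.68 after PBS and 10.64, 10.35 and 10.18 after Con A. The groups did not overlap, and it rose by 1.46 (2.75-fold, 95% interval 0.92 to 1.99, limma adjusted p = 0.00727), the largest rise of these lists. The condensin gene Smc2, the kinase gene Melk and the abscission gene Cep55 rose by 0.91, 0.91 and 0.84 (limma adjusted p = 0.041, 0.0443 and 0.0401). With 1 array left out these 3 kept their call only in the fit without PBS replicate 2, and the limma adjusted p reached 0.15, 0.158 and 0.144 in the others. With all arrays, centring each array on its median also ended the calls of Smc2 and Melk (limma adjusted p = 0.0515 and 0.0548), and a trended robust variance and array weights that of Melk (0.0527 and 0.0503). The fifth gene was Lmnb1, lamin B1, which rose by 0.62 and lost its call without PBS replicate 1 or Con A replicate 2 (limma adjusted p up to 0.0525). PBS replicate 2 was the highest PBS array for 58 of these 60 genes, against 30.1% of all genes. Without it 48 rose, a count with the limit given above for that fit.

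Of 47 other genes of replication and repair 4 rose and 0 fell, with a median difference of 0.32. Pola2, a subunit of the polymerase that lays down primers, lay at 8.59, 8.90 and 8.94 after PBS and 9.63, 9.72 and 9.78 after Con A. PBS replicate 2 was not its highest PBS array, the groups were well apart, and it rose by 0.90 (0.65 to 1.15, limma adjusted p = 0.00247). Rpa2, which covers single-stranded DNA, lay at 7.84, 8.21 and 8.13 after PBS and 8.91, 8.76 and 8.65 after Con A and rose by 0.72 (limma adjusted p = 0.00912). Both kept their call in each fit with 1 array left out, at limma adjusted p up to 0.0175 and 0.043. The helicase gene Blm and the flap nuclease gene Fen1 rose by 0.80 and 0.36 (limma adjusted p = 0.0423 and 0.0291). PBS replicate 2 was the highest PBS array for 42 of these 47 genes, and without it 17 rose, with the same limit. Blm kept its call only without PBS replicate 2 and Fen1 only without PBS replicate 3, with limma adjusted p up to 0.149 and 0.0927 otherwise, and the call of Blm was lost on centring too (0.0567).

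**Figure D4:**
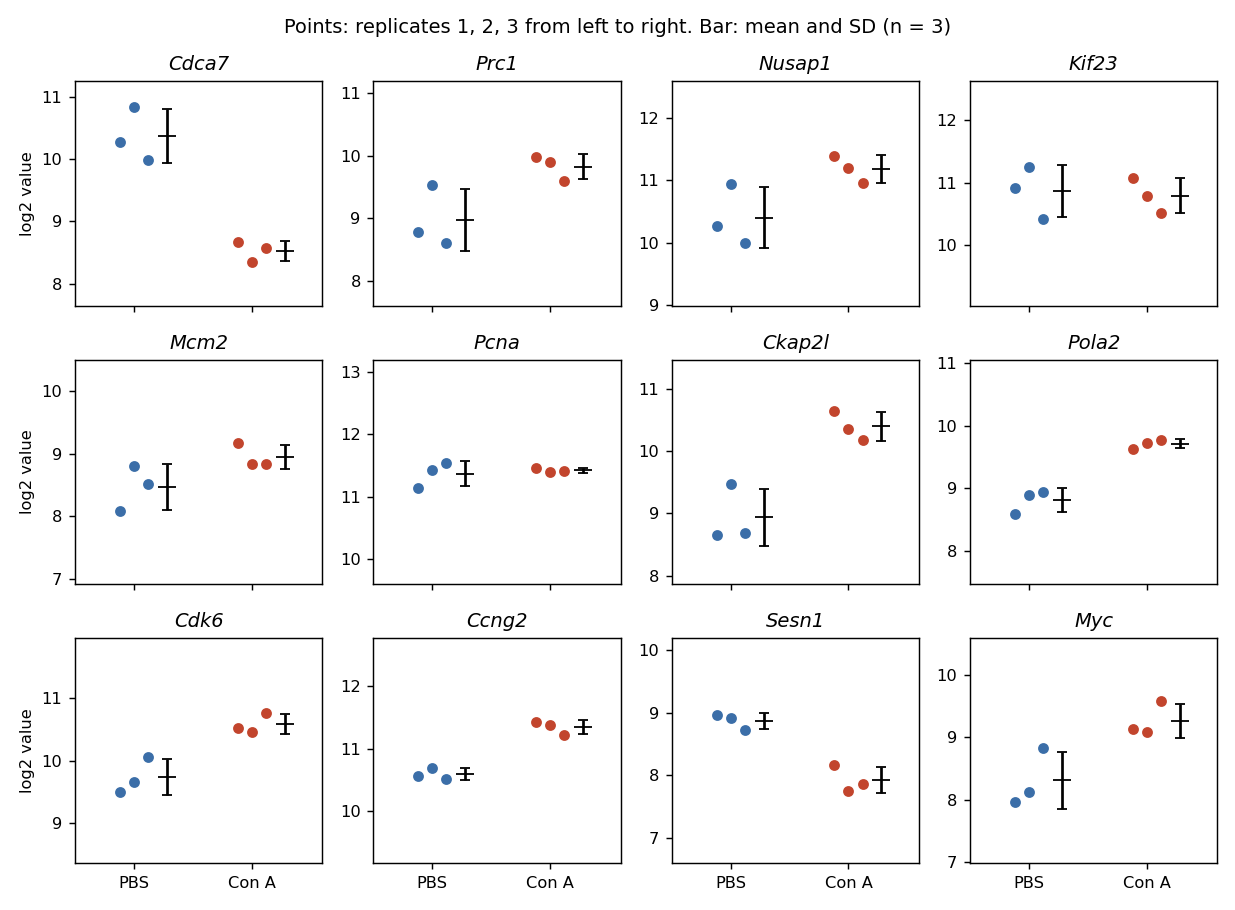
Log2 values of 12 genes in each array, replicates 1 to 3 from left to right within a group, with mean and SD (n = 3); every panel spans the same log2 range. Prc1, Nusap1 and Ckap2l show the high PBS replicate 2, Pola2, Ccng2 and Sesn1 separate the groups with little spread, and Cdca7 shows the fall.

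Genes that decide on entry into the cycle were mixed. Of 11 G1 cyclin and kinase genes 1 rose and 0 fell (2 rose without PBS replicate 2), and it was Cdk6, a partner of D-type cyclins, at 9.503, 9.66 and 10.06 after PBS and 10.53, 10.46 and 10.77 after Con A. It rose by 0.84 (limma adjusted p = 0.013, and 0.0533 without PBS replicate 1). Of 25 genes of the E2F, RB and MYB factors and their partners 3 rose and 1 fell (2 and 0 without PBS replicate 2), with a median difference of -0.06. Myc lay at 7.96, 8.12 and 8.83 after PBS and 9.13, 9.08 and 9.58 after Con A and rose by 0.96 (limma adjusted p = 0.0404), Lin9, a core subunit of MuvB, rose by 0.83, and Mxd1, an antagonist of MYC, by 0.41. Mxi1, another antagonist of MYC, fell by 0.47. With 1 array left out, Myc and Mxi1 kept their call only without PBS replicate 3 and Lin9 only without PBS replicate 2, with limma adjusted p up to 0.139, 0.164 and 0.127 otherwise. Mxi1 also lost its call on centring and on a second quantile normalization (limma adjusted p = 0.0543 and 0.0747).

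Of 26 CDK inhibitor and arrest genes 3 rose and 3 fell (3 and 2 without PBS replicate 2), with a median difference of 0.10. Ccng2, an unusual cyclin of resting cells, lay at 10.57, 10.70 and 10.51 after PBS and 11.44, 11.39 and 11.22 after Con A and rose by 0.75 (limma adjusted p = 0.00243). Sesn1, a stress-induced p53 target, lay at 8.96, 8.91 and 8.72 after PBS and 8.16, 7.75 and 7.86 after Con A and fell by 0.94 (limma adjusted p = 0.00363). Trp53inp1, another p53 target, fell by 0.69 (limma adjusted p = 0.00363). These 3 genes kept their call with any 1 array left out. Plk3, a stress-response kinase, rose by 1.00 (limma adjusted p = 0.023) and lost its call without PBS replicates 1 or 2 or Con A replicates 2 or 3, at limma adjusted p up to 0.0999. The others past the threshold were Cdkn2a, which rose by 0.56 and kept its call with 1 array left out only without PBS replicate 3 or Con A replicate 2, and Sesn2, which fell by 0.46 and kept it only without PBS replicate 3 (limma adjusted p up to 0.12 and 0.118).

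Markers of the cells that the sort could hold were measured beside these genes. Over all genes 4.59% rose and 7.22% fell. The markers of granulocyte and monocyte precursors included 3 of 17 that rose, and 0 fell. Of these 17 markers 11 had a higher mean and 6 a lower one, with differences from -0.73 to 1.43 and a median of 0.20. Their mean level was 9.39 to 9.78 after PBS and 9.69 to 9.95 after Con A. That list stood at -0.12, 0.25 and -0.13 from the PBS mean in PBS replicates 1, 2 and 3 and at 0.43, 0.17 and 0.26 in the Con A arrays, so PBS replicate 2 was high in it too. Kit rose by 1.43 (limma adjusted p = 0.00176) and Cdk6 as given above, and the third was the granule protease gene Ctsg, which rose by 0.83 (limma adjusted p = 0.0407) and kept its call with 1 array left out only without PBS replicate 2. The part of precursor content in the pattern of the mitotic genes was not tested.

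The monocyte markers included 7 of 15 that fell and 1 that rose, at a mean of 10.9 to 11.2 after PBS and 9.98 to 10.4 after Con A. F13a1, a clotting factor subunit, fell by 2.16 and Ccr2, the receptor that draws monocytes out of marrow, by 2.00 (limma adjusted p = 0.000808 and 0.00177). PBS replicate 2 was the lowest PBS array of that list, at -0.21 from the PBS mean, and Con A replicate 1 the lowest of all, at -1.10. Mature granulocyte markers had 2 that rose of 11 (Il1r2 by 1.02, and Hdc) and 2 that fell (G0s2 by 0.71, and Mmp9), with a mean of 12.7 to 12.9 in every array. T cell markers, which EL4 cells could bring, had 0 of 16 past the threshold. Their mean was 6.59 to 6.87 over the 6 arrays, below every array median, while the mean of Cd3e in each group, given above, was higher than those medians. Of these 16 markers 10 had a higher mean after Con A and 6 a lower one, with a median difference of 0.07. The groups did not overlap for 4 of the 16 (25%), all higher after Con A, against 14.4% of all genes. The part of these contents in the results was not tested.

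The remaining marker lists were those of other blood and liver cells. Erythroid markers had 2 of 11 that rose, Gata1 by 1.09 and Car2 by 0.53, at a mean of 6.41 to 6.46 after PBS and 6.65 to 6.68 after Con A. NK cell markers had 1 of 9 that rose (Gzmb by 1.75), platelet markers 1 of 5 (Itga2b by 0.73), and hepatocyte markers 0 of 12. All 5 platelet markers had a higher mean after Con A, with a median difference of 1.00 and a largest of 2.195. Of the 12 hepatocyte markers 11 had a higher mean after Con A and 1 a lower one, with a median difference of 0.21. B cell markers had 1 of 9 that fell (Ms4a1 by 0.45) and dendritic cell markers 1 of 10 (Wdfy4 by 0.66). Kupffer cell markers had 1 that rose (Mrc1 by 1.69) and 2 that fell (Slc40a1 by 1.19, and Nr1h3) of 13. Of these 13 markers 10 had a higher mean after Con A and 3 a lower one, with a median difference of 0.57. Endothelial and stellate markers had 1 that rose (Pecam1 by 1.55) and 1 that fell (Lyve1 by 1.33) of 12. Mean levels were 7.48 to 7.99 after PBS and 7.24 to 8.36 after Con A for the NK cell list, 6.58 to 6.69 after PBS and 6.43 to 6.57 after Con A for B cells and 7.85 to 8.3 after PBS and 7.69 to 8.17 after Con A for dendritic cells. They were 7.94 to 8.27 after PBS and 7.86 to 9.28 after Con A for the Kupffer cell list and 6.82 to 7.41 after PBS and 7.09 to 9 after Con A for platelets. Hepatocyte markers lay at 6.88 to 6.93 after PBS and 6.9 to 7.61 after Con A, and endothelial and stellate markers at 6.87 to 6.97 after PBS and 6.9 to 7.24 after Con A. The ranges of the groups overlapped in each of these 7 lists but that of B cells, and they did not overlap in the erythroid list.

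With 1 array left out, Il1r2, Wdfy4 and Lyve1 lost their call without PBS replicate 1 or Con A replicate 2, and Gzmb without PBS replicate 1 or Con A replicate 1. Ms4a1 lost it without PBS replicate 1 or 2 or Con A replicate 1 or 2, and Car2 without PBS replicate 1 or 2 or Con A replicate 1 or 3. The limma adjusted p of these 6 genes reached at most 0.119, for Car2. The platelet list, the Kupffer list, the hepatocyte list and the endothelial and stellate list were highest in Con A replicate 2. That array was the highest for 0 of 21 mitotic genes. The part of these cells in the results was not tested.

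**Figure D5:**
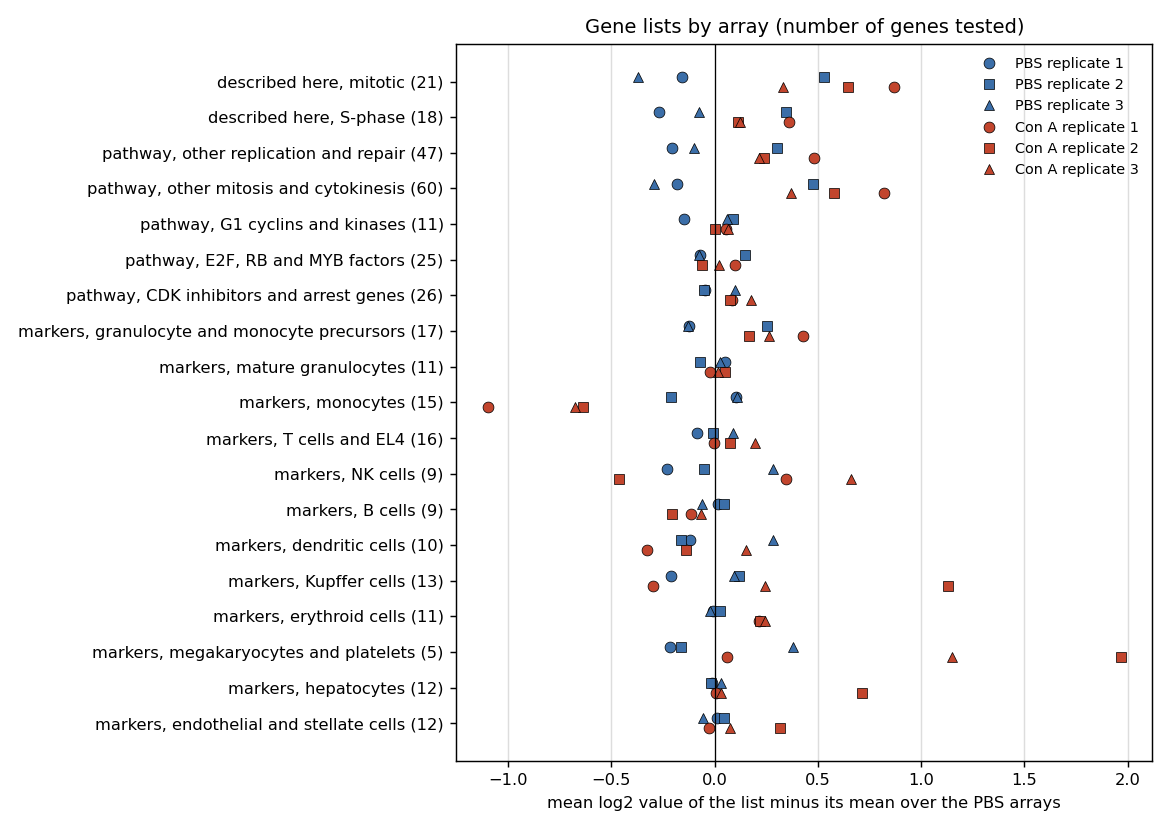
Mean log2 value of each gene list in each array minus the mean of that list over the 3 PBS arrays; blue marks are PBS and red marks Con A, circles replicate 1, squares replicate 2 and triangles replicate 3. The mitotic and replication lists put PBS replicate 2 among the Con A arrays, as do the precursor markers, while the monocyte markers separate the groups downward.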

How the data were processed

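RNA of 6 sorted samples was amplified with a whole-transcript kit, labelled with biotin and hybridised to 1-colour Affymetrix arrays, per the labels' protocols. What the authors deposited is a table of log2 values, 1 column an array. The submitters' processing notes name RMA and Partek with no version or settings. The sources used here name no annotation build. Of 35556 rows, 21789 carry 1 gene symbol, 1621 several and 12146 none. The row with the highest mean stood for a gene, which left 19938 genes. No 2 arrays were identical.

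Con A and PBS arrays (n = 3 each) were compared with limma 3.58.1 (lmFit and eBayes, R 4.3.3) and Benjamini-Hochberg adjustment over all genes. The number of arrays limits the precision. On simulated data, 49.4%, 95.1% and 100% of genes changed by 0.5, 1 and 2 on the log2 scale were recovered, and 6.59% of calls were false. The noise was independent between genes, with no effect shared by an array, and 200 of 19938 genes were changed. The median standard error was 0.237 for the mitotic list and 0.177 for the S-phase list, against 0.0945 over all genes. These rates therefore do not carry over to the genes described here.

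The members, the 5 pathway lists and the 12 marker lists were chosen with earlier results of these data known. Of 367 list entries 349 matched. Every measured member was named, with all arrays where it passed, did not overlap or differed by 0.5 or more. Of each pathway list up to 4 genes, and of each marker list up to 2, with the largest differences past the threshold were named, and a few more to complete a count or a complex. Alternatives were a filter on dim genes, the mean of a gene's rows, centring, a second quantile normalization, a trended robust variance, array weights, a replicate block and leaving out each array. Promoter windows and gene names came from RefSeq tables.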

Additional observations from a re-analysis of the deposited data

How the results depend on the processing

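Cdca7 fell under all 13 alternatives, and the median difference was 0.47 to 0.94 for the mitotic list and 0.21 (without PBS replicate 1) to 0.44 for the S-phase list. With only the genes at or above the median level tested, 2 of the 38 genes left passed, 1 of them mitotic (Prc1), beside 23.7% of the genes in that fit. Leaving out 1 array gave 1140 to 2765 genes past the threshold over all genes, 1 to 27 among the 39, 0 to 19 mitotic and 1 to 8 S-phase, each upper end for the 39 coming without PBS replicate 2. A replicate block, fitted on the shared numbers, gave 14 of the 39, 13 of them mitotic and higher, beside 5.09% of all genes higher and 7.64% lower (2539 in all), and the calls of Blm and Fen1 were lost (limma adjusted p = 0.0513 and 0.0516). Deviations of same-numbered arrays from their group means correlated at 0.228, -0.17 and 0.555. Those of arrays with different numbers correlated at -0.543 to 0.538. With 3 arrays a group, these values cannot tell whether the numbers pair the arrays. Small differences changed sign in at least 1 fit with an array left out, with these ranges over the 6 fits: Kif23 (-0.29 to 0.12), Ttk (-0.091 to 0.50), Pcna (-0.064 to 0.14), Gins2 (-0.035 to 0.15), Cdc6 (-0.094 to 0.052) and Ccne2 (-0.036 to 0.38). The causes were not tested. The dim rows, such as the second row of Top2a, limit what can be said of genes near background.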
